A study of Mus musculus with 12 samples.

Results

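The Nat8 family is a run of 8 N-acetyltransferase genes (Nat8f7, Nat8f3, Nat8f6, Nat8f5, Nat8, Nat8f2, Nat8f4 and Nat8f1, in chromosome order) on mouse chromosome 6, on the side of Pcbp1 with the lower coordinates. Its members were taken as the rows of the deposited count table whose gene identifier carries 1 of these symbols, which gave 8 of 55487 rows. The members were selected on their fold changes in naive Pcbp1 knockout cells, where several stood among the highest of all genes. Its values in the naive comparison, and in any comparison that uses the naive libraries, are therefore given as a description with no test, and only the EpiLC comparison between genotypes is tested.

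Polyadenylated RNA was sequenced from the mouse embryonic stem cell line E14 Tg2a in 4 groups of 3 libraries. Naive KO libraries came from 3 Pcbp1 knockout clones kept in serum-free 2i and LIF medium, which holds cells in a naive state with inhibitors of MEK and GSK3β, and naive WT libraries came from 3 control clones in the same medium. EpiLC KO and EpiLC WT libraries came from knockout and control clones after 48 h on fibronectin with activin A, bFGF and 1% serum replacement, which yields epiblast-like cells (EpiLCs), a model of the early postimplantation epiblast. The control clones are called wild type in the sample labels and Scr in the series text, and the labels give neither the position of the edit nor a rescue line.

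NAT8 proteins are acetyltransferases of the GNAT fold that sit in the membrane of the endoplasmic reticulum. Human NAT8 attaches an acetyl group to cysteine S-conjugates, the last step by which glutathione conjugates become mercapturic acids, and is known for its abundance in kidney and liver. Human NAT8 and its close copy NAT8B have also been described as enzymes that acetylate lysines of proteins passing through the endoplasmic reticulum. Rodents carry more copies of the family than humans do, several of them first named camello-like genes after a Xenopus gene.

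The members lie within 209.0 kb (GRCm38 chromosome 6, 85706727 to 85915687), all on the minus strand, and the cluster ends 608.8 kb before the start of Pcbp1 (86524492 to 86526321). Nat8f7 (ENSMUSG00000089694.2, 85706727 to 85713205) is the member farthest from Pcbp1, and Nat8f1 (ENSMUSG00000057103.11, 85910154 to 85915687) is the nearest. Between them lie Nat8f3 (ENSMUSG00000051262.9, 85732513 to 85765754), Nat8f6 (ENSMUSG00000079495.2, 85808024 to 85820954), Nat8f5 (ENSMUSG00000079494.2, 85817218 to 85820972), Nat8 (ENSMUSG00000030004.6, 85830388 to 85832082), Nat8f2 (ENSMUSG00000033634.7, 85865422 to 85869158) and Nat8f4 (ENSMUSG00000068299.11, 85899051 to 85904884). The coding sequences are 681 to 717 bases long and code for 226 to 238 residues. Those of Nat8f7, Nat8f3 and Nat8f6 are nearly the same, at 99.6% identity for Nat8f7 against Nat8f3 and against Nat8f6 and 99.7% for Nat8f3 against Nat8f6. Nat8f2 and Nat8f4 share 89% and Nat8 and Nat8f1 84%, and the other pairs lie between 67.5% and 81.1%.

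The start regions of 6 promoter windows are printed: those that hold both GTTTATNAT and CAGCCAAT, and those of Nat8f3 and the second start of Nat8, which resemble each other. The set follows the sequences and not the levels in naive KO, so it includes the scarce Nat8f5 and leaves out Nat8f4. Each window is RefSeq sequence of GRCm38.p6 from 250 bases before to 50 bases after an annotated start, read 5′ to 3′ on the minus strand. RefSeq windows were found for all 8 members, with 2 starts each for Nat8 and Nat8f4. The windows of Nat8f7 (chr6:85708512-85708811), Nat8f6 (chr6:85809828-85810127), Nat8f5 (chr6:85820923-85821222), Nat8f2 (chr6:85869088-85869387), Nat8f3 (chr6:85765695-85765994) and the second start of Nat8 (chr6:85836808-85837107) follow, with matches to GTTTATNAT and CAGCCAAT in capitals.
Nat8f7: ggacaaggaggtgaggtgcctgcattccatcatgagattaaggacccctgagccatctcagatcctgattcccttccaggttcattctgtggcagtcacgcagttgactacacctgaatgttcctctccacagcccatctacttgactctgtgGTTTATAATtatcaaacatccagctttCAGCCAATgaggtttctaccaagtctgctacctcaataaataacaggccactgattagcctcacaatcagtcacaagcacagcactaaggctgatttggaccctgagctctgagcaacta
Nat8f6: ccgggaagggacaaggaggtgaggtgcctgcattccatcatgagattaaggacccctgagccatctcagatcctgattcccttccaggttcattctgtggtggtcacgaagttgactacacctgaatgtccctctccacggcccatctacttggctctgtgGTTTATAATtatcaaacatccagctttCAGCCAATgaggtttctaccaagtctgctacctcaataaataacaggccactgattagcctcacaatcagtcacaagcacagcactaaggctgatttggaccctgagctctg
Nat8f5: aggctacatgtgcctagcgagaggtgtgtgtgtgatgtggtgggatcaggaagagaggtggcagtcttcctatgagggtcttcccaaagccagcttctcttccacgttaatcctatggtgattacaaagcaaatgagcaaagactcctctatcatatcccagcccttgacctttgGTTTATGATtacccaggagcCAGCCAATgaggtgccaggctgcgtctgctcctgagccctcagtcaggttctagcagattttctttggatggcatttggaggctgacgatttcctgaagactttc
Nat8f2: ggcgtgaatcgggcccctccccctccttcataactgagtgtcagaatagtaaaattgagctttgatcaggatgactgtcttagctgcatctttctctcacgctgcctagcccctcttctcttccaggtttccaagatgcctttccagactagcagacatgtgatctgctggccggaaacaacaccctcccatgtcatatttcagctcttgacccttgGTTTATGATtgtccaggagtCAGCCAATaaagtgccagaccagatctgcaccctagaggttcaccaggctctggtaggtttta
Nat8f3: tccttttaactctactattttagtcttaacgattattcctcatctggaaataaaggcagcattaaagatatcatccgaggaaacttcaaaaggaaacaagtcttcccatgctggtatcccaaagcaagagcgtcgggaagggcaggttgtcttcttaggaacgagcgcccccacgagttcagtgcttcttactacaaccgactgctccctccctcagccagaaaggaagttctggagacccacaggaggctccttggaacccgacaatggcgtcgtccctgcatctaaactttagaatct
Nat8 start 2: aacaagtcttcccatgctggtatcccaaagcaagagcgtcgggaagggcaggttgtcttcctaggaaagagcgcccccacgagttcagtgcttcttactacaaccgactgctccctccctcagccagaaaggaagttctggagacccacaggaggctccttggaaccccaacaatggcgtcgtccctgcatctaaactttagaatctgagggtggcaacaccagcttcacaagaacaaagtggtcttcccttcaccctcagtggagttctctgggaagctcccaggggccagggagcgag

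The Nat8f7 and Nat8f6 windows were identical at 97.9% of 292 aligned bases, and the windows of Nat8f3 and the second start of Nat8 at 98.5% of 206 aligned bases. The 4 windows of Nat8f7, Nat8f6, Nat8f5 and Nat8f2 each hold GTTTATNAT followed by CAGCCAAT, at offsets of -97 and -70 bases from the start in Nat8f7, -89 and -62 in Nat8f6, -75 and -55 in Nat8f5, and -33 and -13 in Nat8f2. These 2 motifs were picked after reading the sequences. Searched on both strands, GTTTATNAT is present in 0.633% and CAGCCAAT in 3.82% of all 32851 promoter windows of the table, and both together in 11 windows (0.0335%), of which 7 are not windows of the family.

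Of the motifs in the search list, TATAAA, the core of the motif bound by TBP, is in the windows of Nat8f7 and Nat8f6, where it overlaps GTTTATNAT on the opposite strand, and of the first start of Nat8f4 (13.6% of all windows). CCAAT, which is contained in CAGCCAAT, is in the windows of 6 members (37.4% of all windows). GGGCGG, the core of the motif bound by SP1, is in the window of Nat8f1 alone among the members (35.7% of all windows). The Nat8f1 window holds 23 CpG dinucleotides and the Nat8f7 window 1, against a median of 7 and quartiles of 3 and 20 over all windows. A match to these letters is a description of the sequence, and binding was not measured. The first 50 bases after the start occurred somewhere in a GENCODE transcript of the same gene in 7 of the 10 windows of the family. They did not for either start of Nat8 or for the second start of Nat8f4, where the RefSeq and GENCODE starts thus differ. A match does not show that the start is shared.

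**Figure D1:**
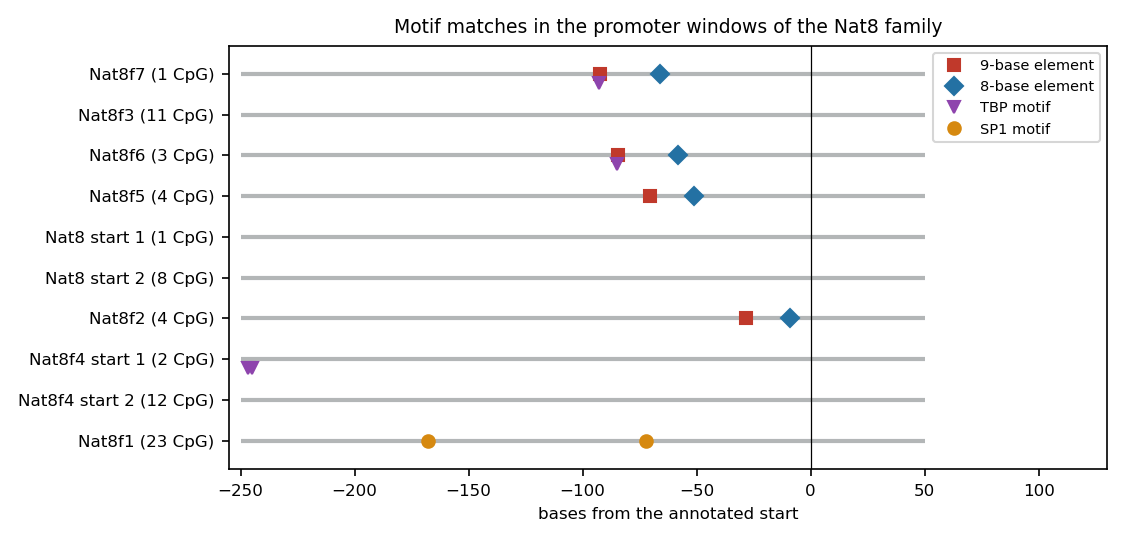
Positions of motif matches in the 10 promoter windows of the Nat8 family, in bases from the annotated start, in chromosome order, with the number of CpG dinucleotides beside each name. The 9-base element (GTTTATNAT) and the 8-base element (CAGCCAAT) occur together in the windows of Nat8f7, Nat8f6, Nat8f5 and Nat8f2, and both matches to the SP1 motif are in the window of Nat8f1.

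Total counts lay between 27146744 and 42204511 per library. Levels are given as CPM, counts scaled to a library total of 1000000 after TMM correction of the totals, and n = 3 libraries, 1 per clone, in every group. Pcbp1, which encodes a KH-domain RNA-binding protein, had 295.3, 302.5 and 302.9 CPM in naive KO and 475.4, 417.9 and 474 CPM in naive WT libraries. It had 250.3, 301.8 and 264.9 CPM in EpiLC KO and 692.1, 511.9 and 591.5 CPM in EpiLC WT libraries. It was lower in every KO library, by -0.60 ± 0.111 (log2 fold change ± SE, edgeR adjusted p = 0.00599) in naive cells and -1.14 ± 0.112 (adjusted p = 0.000137) in EpiLCs. The 10 naive pluripotency markers summed to 3924 to 4257 CPM in naive KO and 4185 to 4305 CPM in naive WT libraries, and the 8 formative markers to 3558 to 3724 CPM in EpiLC KO and 2965 to 5164 CPM in EpiLC WT libraries.

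Among the 7 members with counts in naive WT, the 3 near-identical members at the far end of the cluster held the highest ratios of KO to WT in naive cells, and the 3 members nearest to Pcbp1 the lowest. Nat8f7 had 15.7, 19.3 and 4.83 CPM in naive KO libraries, against 0.288, 0.224 and 0.398 CPM in naive WT libraries (means 13.3 ± 7.52 and 0.304 ± 0.088, SD). Nat8f3 had 17.1, 27.2 and 5.17 CPM in naive KO libraries, against 0.577, 0.577 and 1.41 CPM in naive WT libraries. Nat8f6 had 2.29, 3.51 and 0.461 CPM in naive KO libraries, against 0.032, 0.0641 and 0.106 CPM in naive WT libraries. For these 3 genes every KO library lay above every WT library, and KO replicate 3 was the lowest of the KO libraries. The ratio of group means was 43.7 for Nat8f7, 19.3 for Nat8f3 and 30.9 for Nat8f6, with log2 fold changes of 5.42 ± 0.675, 4.25 ± 0.623 and 4.84 ± 0.82 (SE).

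The middle members were scarcer. Nat8f5 had 2, 5 and 2 counts in naive KO libraries and 0 in each naive WT library, a ratio of 2.94 when the WT group is set at a floor of 3 counts over the group. This ratio takes the KO counts as exact. Nat8, the member that carries the family name, had 19, 35 and 6 counts in naive KO libraries, against 1, 2 and 1 counts in naive WT libraries (0.565, 0.975 and 0.185 CPM against 0.032, 0.0641 and 0.0266 CPM). Its pooled ratio was 14.7 with a 95% interval of 5.46 to 55.7 that covers counting error only. Both genes stayed under the low-count filter and have no fitted value, but their KO and WT libraries did not overlap.

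The 3 members nearest to Pcbp1 showed smaller differences. Nat8f2 had 1.13, 1.95 and 0.677 CPM in naive KO libraries, against 0.384, 0.256 and 0.398 CPM in naive WT libraries, a ratio of means of 3.62 (log2 1.84 ± 0.518). Nat8f4 had 15.4, 16.1 and 7.84 CPM in naive KO libraries, against 7.08, 7.63 and 6.51 CPM in naive WT libraries, a ratio of 1.86 (log2 0.89 ± 0.262). Nat8f1 had 0.535, 1.14 and 0.615 CPM in naive KO libraries, against 0.449, 0.641 and 0.664 CPM in naive WT libraries. The libraries of Nat8f1 overlapped, and its log2 fold change of 0.39 ± 0.389 went to -0.054 without naive KO replicate 2. Nat8f4 was the member whose KO replicate 3 came closest to the WT libraries without overlapping them. In all, KO lay above WT without overlap for 7 of 8 members, a pattern found in 15.1% of the 18134 genes tested, and 4.27% of those genes were called higher in naive KO. Nat8f5 and Nat8, among the 7, stayed under the low-count filter and so are not among the genes tested. The members were picked for this contrast, so nothing is read from that count. The libraries average over many cells, so a larger share of expressing cells and more RNA per expressing cell cannot be told apart.

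**Figure D2:**
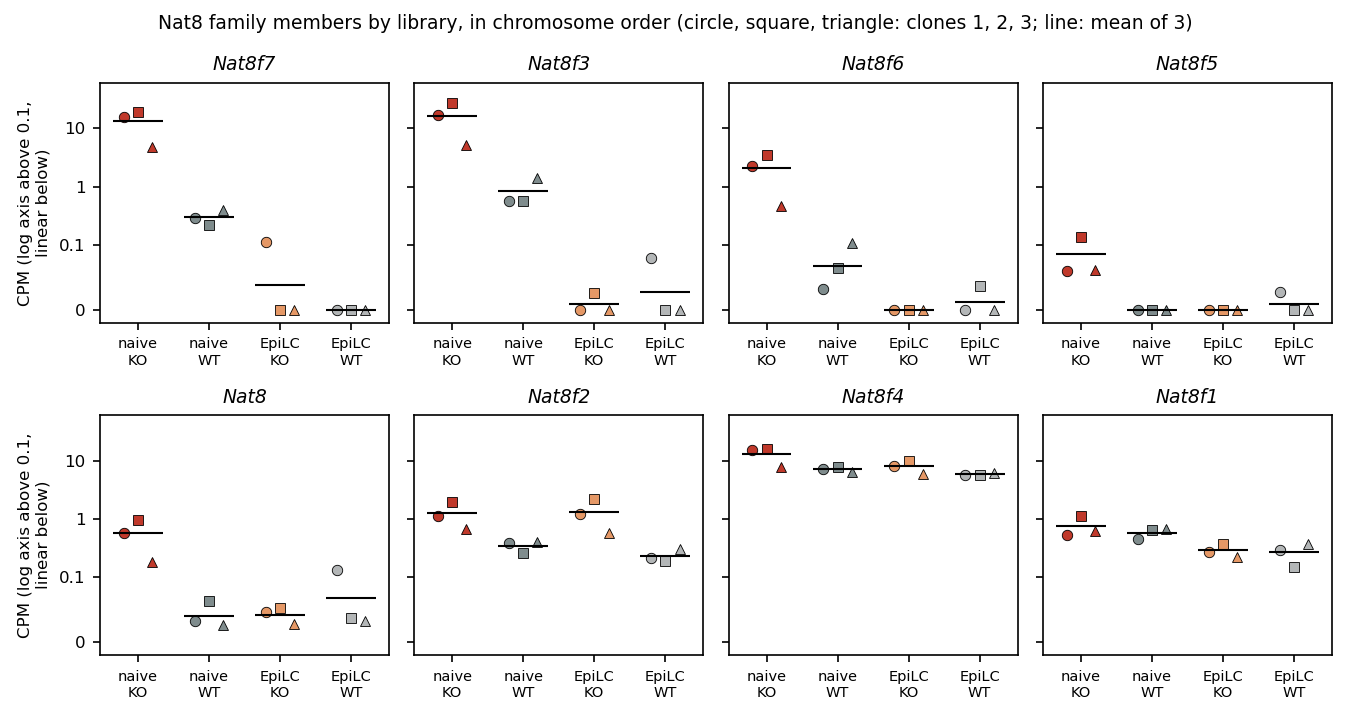
CPM of the 8 members in each of the 12 libraries, in chromosome order, on an axis that is logarithmic above 0.1 CPM and linear below. Circles, squares and triangles are replicates 1, 2 and 3 and the line is the mean of 3. Nat8f7, Nat8f3 and Nat8f6 stand high in naive KO (means of 13.3, 16.5 and 2.09 CPM) and near 0 in EpiLCs, whereas Nat8f2 and Nat8f4 were measured in all 4 groups.

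Per kilobase of exon, the naive KO order was Nat8f7 (7.28 ± 4.13 CPM per kb), Nat8f3 (5.25 ± 3.51), Nat8f4 (4.07 ± 1.42), Nat8f6 (1.23 ± 0.904), Nat8f1 (0.568 ± 0.245), Nat8 (0.512 ± 0.352), Nat8f2 (0.379 ± 0.196) and Nat8f5 (0.088 ± 0.0462). In that order the libraries of neighbours overlapped except between Nat8f4 and Nat8f6 and between Nat8f2 and Nat8f5. The naive WT order began with Nat8f4 (2.19 ± 0.174 CPM per kb), whose libraries lay above those of every other member, followed by Nat8f1 (0.435 ± 0.0879), Nat8f3 (0.272 ± 0.153), Nat8f7 (0.167 ± 0.0483) and Nat8f2 (0.105 ± 0.0237). Nat8f6, Nat8 and Nat8f5 were at or under 0.0397 CPM per kb in naive WT. In naive WT the libraries of Nat8f1 and Nat8f3, and of Nat8f3 and Nat8f7, overlapped. Nat8f7, Nat8f3 and Nat8f6 together made up 63.4 ± 9.55% of the summed member counts in naive KO and 13.1 ± 6.06% in naive WT, and Nat8f4 30.6 ± 8.37% in naive KO and 76.4 ± 6.90% in naive WT. These values use the full exon length and the counted reads, and reads with several matches were left out. They can therefore be too low for members that share much sequence, above all Nat8f7, Nat8f6 and Nat8f3, and the orders and shares are uncertain.

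Naive knockout clones spread over a wider range than naive control clones. The summed CPM of the 8 members was 52.7, 70.3 and 19.8 in naive KO and 8.84, 9.45 and 9.51 in naive WT libraries. Replicate 2 was the highest naive KO library for 8 of 8 members, and the order was 2, 1, 3 for 6 of 8. These counts take the near-identical Nat8f7, Nat8f3 and Nat8f6 as separate members. The nearby genes Tprkb, Ptges3-ps, Dusp11 and Alms1, not called in naive cells, also had the order 2, 1, 3, while Snrpg and Tia1 did not. How common this order is over all genes was not tested, so it is not read as a trait of the family. The highest naive KO library stood 3.99 times above the lowest for Nat8f7, 5.26 times for Nat8f3, 7.61 times for Nat8f6, 5.28 times for Nat8, 2.88 times for Nat8f2 and 2.06 times for Nat8f4. The depth of those libraries varied less, at 33124870, 35230853 and 32274451 counts. The labels do not say whether the replicate number follows the clone between conditions. Deviations of same-numbered naive and EpiLC libraries of a genotype from their group means correlated at 0.145 to 0.264 over genes. This was above every such pair with different numbers (at most 0.0483). EpiLC KO replicate 1 and EpiLC WT replicate 3, which cannot share a clone, correlated at 0.287. EpiLC KO replicate 3 and EpiLC WT replicate 2, which cannot either, correlated at 0.204. The pairing by clone is therefore taken as likely and not as known. In EpiLC KO the order was 2, 1, 3 for Nat8f2 and Nat8f4, as in naive KO, with highest-to-lowest ratios of 3.85 and 1.66. Nat8f1 also had the order 2, 1, 3 in EpiLC KO (ratio 1.64), against 2, 3, 1 in naive KO.

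**Figure D3:**
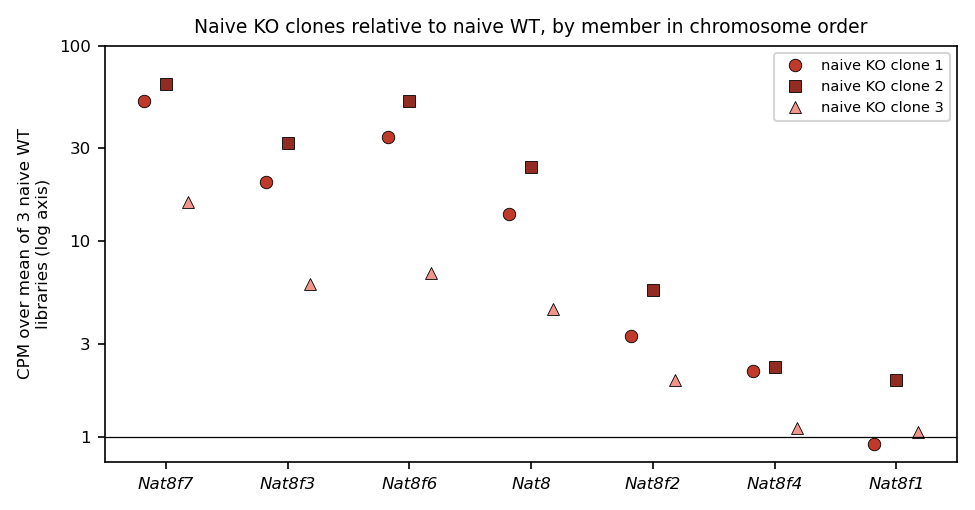
CPM of each naive KO library over the mean of the 3 naive WT libraries, on a log axis, for the 7 members with counts in naive WT, in chromosome order. The ratios run to 63.4 in replicate 2 for Nat8f7 and to 15.9 in replicate 3, and lie between 0.915 and 1.95 for Nat8f1.

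After 48 h of transition the 3 far members were almost undetected in both genotypes. Nat8f7 had 5, 0 and 0 counts in EpiLC KO and 0, 0 and 0 counts in EpiLC WT. Nat8f3 had 0, 1 and 0 counts in EpiLC KO and 3, 0 and 0 counts in EpiLC WT. Nat8f6 had 0, 0 and 0 counts in EpiLC KO and 0, 1 and 0 counts in EpiLC WT. Pooled over the 3 libraries, naive KO stood 315 times above EpiLC KO for Nat8f7 (95% counting interval 135 to 973). For Nat8f6 the ratio of naive KO to EpiLC KO was 83.2 with EpiLC KO set at a floor of 3 counts over the group. In the control clones Nat8f3 had 0.577, 0.577 and 1.41 CPM in naive WT, against 0.0806, 0 and 0 CPM in EpiLC WT. For Nat8f7 the ratio of naive WT to EpiLC WT was 9.71 with EpiLC WT set at the same floor. Nat8f5 had 0 counts over the EpiLC KO and 1 over the EpiLC WT libraries, and Nat8 had 5 and 7.

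The 3 members near Pcbp1 were still counted in EpiLCs of both genotypes. The log2 fold change of EpiLC over naive was 0.06 ± 0.465 in KO and -0.56 ± 0.594 in WT for Nat8f2, -0.72 ± 0.261 in KO and -0.28 ± 0.264 in WT for Nat8f4, and -1.39 ± 0.409 in KO and -1.09 ± 0.43 in WT for Nat8f1. Per kilobase, Nat8f4 led in EpiLC KO (2.48 ± 0.611 CPM per kb) and in EpiLC WT (1.81 ± 0.0911), above every other member in each library. Nat8f2 came next in EpiLC KO (0.396 ± 0.245) and overlapped with Nat8f1 (0.216 ± 0.0546). In EpiLC WT, Nat8f1 (0.201 ± 0.0821) came before Nat8f2 (0.0708 ± 0.0177), with no overlap between their libraries.

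Nat8f2 was higher in EpiLC KO. The family was chosen on fold changes of the naive libraries, but with earlier results of these data known. By the replicate numbers the EpiLC libraries likely come from the same clones as those naive libraries. The clones therefore cannot be taken as independent of that choice. Nat8f2 had 52, 82 and 20 counts in EpiLC KO, against 8, 5 and 9 counts in EpiLC WT, or 1.19, 2.17 and 0.563 CPM against 0.215, 0.187 and 0.299 CPM. Every KO library lay above every WT library, and the means were 1.31 ± 0.808 and 0.234 ± 0.0585 CPM. The log2 fold change was 2.47 ± 0.546 (SE, edgeR adjusted p = 0.0108), higher in 3 of 3 KO libraries. The call held in every alternative tried, with log2 fold changes of 1.90 to 2.82 and adjusted p of 0.000218 to 0.0439, leaving out any 1 library included. Nat8f2 was the 1 member called, while 15.1% of all genes tested were called in either direction in EpiLCs and 7.22% were called higher. Nat8f7, Nat8f3 and Nat8f6 held 0 to 5 counts per EpiLC library, so no share of members is set against those percentages. KO libraries all above the WT libraries, as for Nat8f2, were found in 16.1% of genes.

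The other members did not pass in EpiLCs. Nat8f4 had 8.04, 9.94 and 6.00 CPM in EpiLC KO, against 5.70, 5.60 and 6.15 CPM in EpiLC WT. KO replicate 3 fell inside the WT range, and the log2 fold change of 0.46 ± 0.263 missed the threshold (adjusted p = 0.267). Nat8f1 had 0.276, 0.37 and 0.225 CPM in EpiLC KO, against 0.296, 0.149 and 0.366 CPM in EpiLC WT (log2 0.09 ± 0.45, adjusted p = 0.923). Nat8f7 (adjusted p = 0.316), Nat8f3 (0.65) and Nat8f6 (0.583) passed the low-count filter through their naive counts, and at 0 to 5 counts per EpiLC library a difference was not detectable at this depth. The summed member CPM was 9.67, 12.6 and 6.82 in EpiLC KO and 6.45, 6.01 and 6.85 in EpiLC WT, a difference of 3.24 (2-sided exact permutation p = 0.2, where 3 against 3 libraries allow no less than 0.1).

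Markers of kidney tubule and liver, tissues where NAT8 enzymes are known to be abundant, overlapped in summed level between the EpiLC groups. Single genes passed in both directions in the hepatocyte and yolk sac list, and only as higher in the kidney list. The median log2 fold changes in EpiLC KO were 0.79 and 0.69 in that order, against 0.00 over all genes. Of the 14 hepatocyte and yolk sac genes listed, 9 were tested, with 4 higher and 2 lower in EpiLC KO (7.22% and 7.86% of all genes tested), and their summed level was 12.9 to 15.99 CPM in EpiLC KO and 12.9 to 15.5 CPM in EpiLC WT. The 14 kidney tubule genes summed to 322.5 to 366.1 CPM in EpiLC KO and 351.3 to 429.9 CPM in EpiLC WT, with 2 of 6 tested genes higher and 0 lower, and most of the sum was Lrp2 (means of 307.5 CPM in EpiLC KO and 376.5 CPM in EpiLC WT). At the level of single genes, Cubn, an endocytic receptor of proximal tubule and visceral endoderm, had means of 13.2 ± 1.71 CPM in EpiLC KO and 1.85 ± 1.28 CPM in EpiLC WT (log2 2.85 ± 0.389, adjusted p = 0.000821). In naive cells the kidney list summed to 9.44 to 17.3 CPM in KO and 11.4 to 21.4 CPM in WT, with Slc34a1, Slc22a6, Slc22a8, Kap and Umod at 0 in both, and the hepatocyte and yolk sac list to 5.82 to 9.17 CPM in KO and 7.37 to 12.1 CPM in WT. Both lists share Hnf4a, a transcription factor gene of liver and kidney, which had 1.63 ± 1.10 CPM in naive KO and 0.231 ± 0.0817 CPM in naive WT (log2 2.80 ± 0.525, adjusted p = 0.00663). In naive cells Hnf4a was the 1 gene called of 9 tested in the hepatocyte and yolk sac list and of 6 tested in the kidney list. The median log2 fold changes of these lists in naive cells were -0.60 and -0.05, and 4.27% of all genes tested were called higher in naive KO. The 13 genes of 2-cell-like cells found in the table summed to 0.708 to 2.76 CPM in naive KO and 1.25 to 6.21 CPM in naive WT, and to 4.73 to 72.1 CPM in EpiLC KO and 1.46 to 6.29 CPM in EpiLC WT. Of 7 tested, 3 were called higher and 0 lower in EpiLC KO (median log2 fold change 3.165), beside 7.22% of all genes called higher. In naive KO 0 were called higher and 0 lower (median -1.17). The part of these cell states in the levels of the Nat8 family was not tested.

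The difference at the family was not shared by most of its neighbours. The window from 1 Mb before the cluster to 1 Mb after Pcbp1 holds 98 other rows, of which 43 were tested. In naive KO 2 of these 43 were higher and 2 lower, or 9.30%, against 9.23% of all genes tested, with a median log2 fold change of 0.06 against 0.00 over all genes. In EpiLC KO 0 were higher and 3 lower, or 6.98%, against 15.1% of all genes tested, with a median of -0.13 against 0.00. For 0 of the 43 did the KO effect differ between conditions by the interaction test of edgeR, which called 0.381% of all genes. Chromosome 6 as a whole stood near the control level, with a median log2 deviation from the WT mean over 652 genes of -0.0449, -0.0204 and -0.0473 in naive KO and -0.0435, -0.0301 and -0.0673 in EpiLC KO libraries. Over all genes it was -0.0204, -0.0161 and -0.0199 in EpiLC KO. For 31 genes of the window, without members and Pcbp1, it was -0.0230, 0.0542 and -0.0464 in naive KO. In EpiLCs these 31 stood at -0.157, -0.0807 and -0.1495 in KO and 0.0701, 0.0750 and -0.0461 in WT, which was not tested.

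Of the 2 neighbours called higher in naive KO, 1 lies between members of the family and 1 between the cluster and Pcbp1. Alms1-ps2, a pseudogene copy of Alms1 that lies between Nat8f3 and Nat8f6, had 52, 50 and 12 counts in naive KO, against 1, 3 and 3 counts in naive WT. Its KO libraries all lay above the WT libraries, with replicate 3 again the lowest, and the log2 fold change was 3.92 ± 0.712 (adjusted p = 0.00542). In EpiLCs it had 6, 7 and 1 counts in KO and 0, 0 and 1 counts in WT, and did not pass (log2 3.10 ± 1.22, adjusted p = 0.108). Alms1-ps1, on the strand opposite to Nat8f3 and partly overlapping its span, had 43, 36 and 6 counts in naive KO, against 0, 0 and 2 counts in naive WT, and was too scarce to be tested. The parent gene Alms1, which encodes a centrosome and basal body protein and lies just before Nat8f7, averaged 59.3 CPM in naive KO and 53.2 CPM in naive WT (log2 0.16 ± 0.108, adjusted p = 0.419). Inside the cluster, Tprkb, a subunit gene of the tRNA-modifying KEOPS complex, did not pass in naive cells (log2 0.37 ± 0.159, adjusted p = 0.178), nor did Ptges3-ps, a pseudogene of a co-chaperone (log2 -0.13 ± 0.187, adjusted p = 0.722).

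Between the cluster and Pcbp1, 14 genes were tested and 1 was called. It was Gm28720, a predicted gene 29.8 kb before Pcbp1, which was higher in naive KO (1.58 CPM, against 0.486 CPM in naive WT, log2 1.68 ± 0.465, adjusted p = 0.0414), and the call was lost when any naive library other than naive KO replicate 2 was left out (adjusted p of 0.0643 to 0.17). The 13 others did not pass in either condition: Dusp11, an RNA phosphatase gene (naive log2 0.19 ± 0.109, adjusted p = 0.331), Add2, Tgfa, Fam136a, Snrpg, a spliceosome core gene (0.16 ± 0.16, adjusted p = 0.597), Pcyox1, Tia1, an RNA-binding protein gene (0.10 ± 0.172, adjusted p = 0.771), C87436, 2310040G24Rik and the predicted genes Gm19265, Gm10443, Gm44941 and Gm28719.

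Outside that interval, Antxr1, a collagen-binding receptor gene 609.4 kb past the Pcbp1 start, fell by 2.41 ± 0.39 on the log2 scale in naive KO (1.16, 1.45 and 2.49 CPM, against 5.25, 12.1 and 9.85 CPM in naive WT, adjusted p = 0.00279). Anxa4, an annexin gene, was lower in naive KO (log2 -0.58 ± 0.129, adjusted p = 0.0155) and in EpiLC KO (-0.67 ± 0.129, adjusted p = 0.00571). Its naive call was lost when naive KO replicate 1 (adjusted p = 0.0724) or 2 (0.053) was left out. Cct7, a chaperonin subunit gene, was lower in EpiLC KO (log2 -0.38 ± 0.079, adjusted p = 0.00771). So was Nfu1, an iron-sulfur cluster carrier gene (-0.51 ± 0.154, adjusted p = 0.0439), a call lost when any EpiLC library other than EpiLC WT replicate 2 was left out (adjusted p of 0.0641 to 0.153). None of these lower genes lies between the cluster and Pcbp1.

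**Figure D4:**
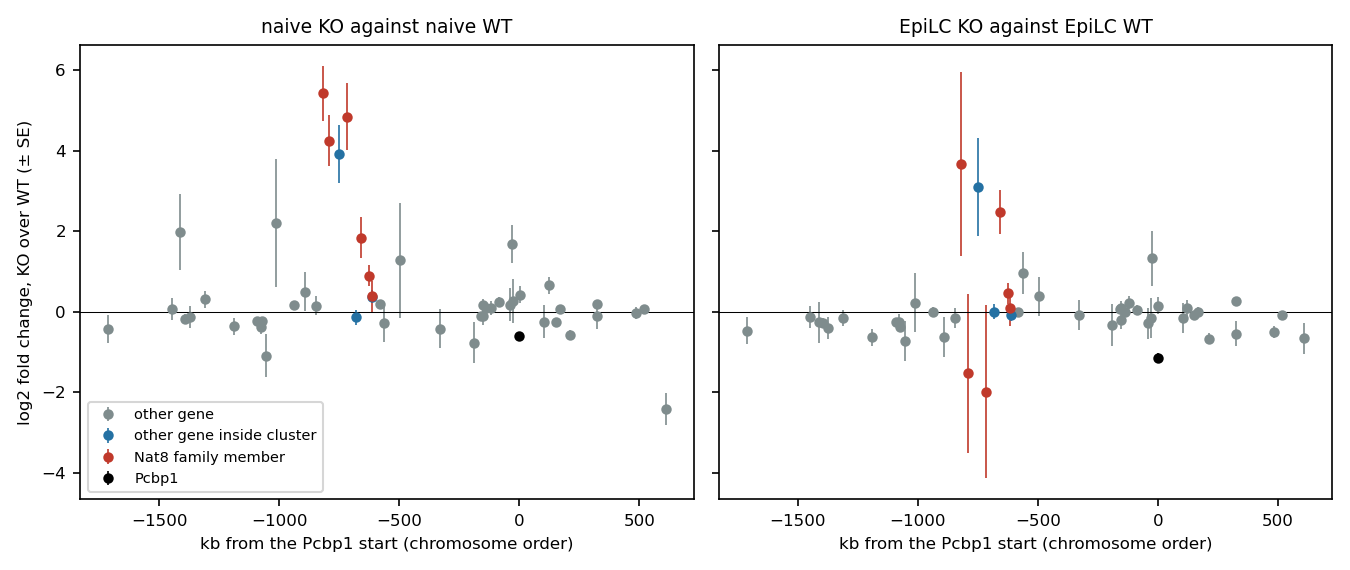
Log2 fold change of KO over WT (± SE) against distance from the Pcbp1 start in kb, for naive cells (left) and EpiLCs (right), with Nat8 family members in red, other genes inside the cluster in blue, Pcbp1 in black and other genes in grey. In naive cells the members at the far end reach 5.42 and those near Pcbp1 0.39, while most grey points lie near 0. In EpiLCs the red points with long bars are Nat8f7, Nat8f3 and Nat8f6, which rest on 0 to 5 counts per library.

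How reads were assigned bears on these values. A read of 50 bases from Nat8f7 would match another gene at 82.3% of positions in its transcripts, at 79.5% in Nat8f3 alone. The share was 52.1% for Nat8f3, 68.0% for Nat8f6, 45.6% for Nat8f1 (31.0% with Tprkb), 18.1% for Nat8f4, 17.9% for Nat8f2, 9.28% for Nat8f5 and 5.68% for Nat8. The counting options, as the file headers show them, leave out reads with several matches, so the levels of Nat8f7, Nat8f3 and Nat8f6 rest on the stretches that differ and the split between them is uncertain. Their places in the per-kilobase orders and their shares of the member counts are uncertain for the same reason. Nat8f6 and Nat8f5 share 135 bp of exon on the same strand, and Nat8f1 shares 478 bp, or 35.5% of its exons, with Tprkb on the opposite strand. Reads in an overlap of 2 genes were not counted, and strand was not used, so transcripts of Nat8f3 and of Alms1-ps1 cannot be told apart by strand where their spans overlap.

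Genes of glutathione conjugation and mercapturate formation, the pathway in which human NAT8 acts last, include 12 that were lower in EpiLC KO. Of 38 listed genes 34 were tested, and 12 were lower and 0 higher (median log2 fold change -0.61, against 0.00 over all genes, of which 7.86% were called lower). Without EpiLC KO replicate 1 the number called was 6, and over the other libraries left out in turn it was 8 to 11. The 12 include the glutathione S-transferase genes Gstm2 (20.1 ± 2.58 CPM in EpiLC KO and 34.7 ± 4.01 CPM in EpiLC WT, log2 -0.79 ± 0.129, adjusted p = 0.00234), Gstp1 (-0.63 ± 0.126, adjusted p = 0.00664) and Gstp2 (-0.88 ± 0.176, adjusted p = 0.00663). Abcc1, which exports glutathione conjugates, also fell in EpiLC KO (85.6 ± 8.21 CPM in EpiLC KO and 141 ± 8.66 CPM in EpiLC WT, log2 -0.72 ± 0.153, adjusted p = 0.00923). The aminoacylases, which remove the acetyl group again, are not among the genes named by rule and were picked after their values were seen. Acy1 (-0.58 ± 0.143, adjusted p = 0.0178) lost its call when replicate 1 of EpiLC KO or of EpiLC WT was left out, and Acy3 (-0.84 ± 0.258, adjusted p = 0.0467) lost it in 7 of 11 alternatives.

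In naive cells 1 gene of the mercapturate list was called, the transferase gene Gstt3, lower in KO (1.74 ± 0.277 CPM in naive KO and 3.90 ± 0.367 CPM in naive WT, log2 -1.16 ± 0.253, adjusted p = 0.0140), and 0 were called higher (median -0.32, with 4.95% of all genes called lower). Gstt3 missed the threshold once naive KO replicate 1 was left out (adjusted p = 0.0585), and the number called was 0 to 5 with 1 library left out, 5 with DESeq2 and 8 with no low-count filter. Of 10 genes listed for lysine acetylation in the endoplasmic reticulum and its acetyl-CoA supply, 0 were higher and 1 lower in naive KO (median -0.07), and 2 were higher and 1 lower in EpiLC KO (median -0.10, with 7.22% of all genes called higher and 7.86% lower). Slc25a1, the mitochondrial citrate carrier, was lower in naive KO (log2 -0.65 ± 0.123, adjusted p = 0.00711) and in EpiLC KO (-0.70 ± 0.124, adjusted p = 0.00338). Slc33a1, which carries acetyl-CoA into the endoplasmic reticulum, was higher in EpiLC KO (14.04 ± 2.18 CPM in EpiLC KO and 8.15 ± 1.29 CPM in EpiLC WT, log2 0.79 ± 0.194, adjusted p = 0.0184). Canx, the chaperone calnexin, was also higher in EpiLC KO (log2 0.43 ± 0.0972, adjusted p = 0.0129). Both calls were lost when EpiLC KO replicate 1 was left out (adjusted p = 0.0849 for Slc33a1 and 0.0603 for Canx), and that of Slc33a1 when EpiLC WT replicate 1 was left out (0.0603).

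**Figure D5:**
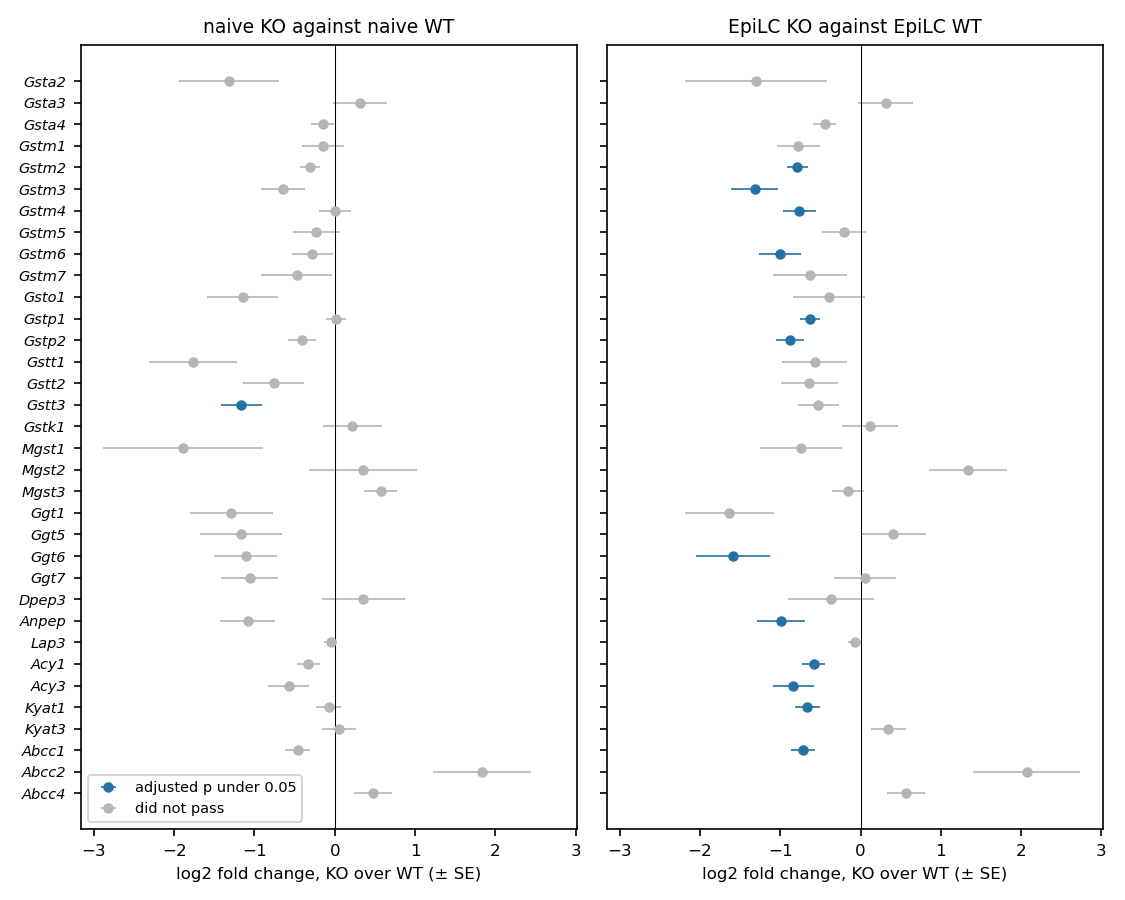
Log2 fold change of KO over WT (± SE) for the 34 tested genes of glutathione conjugation and mercapturate formation, in naive cells (left) and EpiLCs (right), with genes at an adjusted p under 0.05 in blue. In EpiLCs 12 genes are blue and all 12 lie below 0, and in naive cells 1 gene, Gstt3, is blue.

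Genes with a pattern like that of the family were sought over all 12 libraries by the Pearson correlation of log2 CPM (prior count 2) with the log2 summed member CPM, among 12345 genes. The 5 highest were Clybl, a mitochondrial lyase gene on chromosome 14 (r = 0.964), Coprs on chromosome 8 (0.940), Tgds on chromosome 14 (0.937), Spice1 on chromosome 16 (0.935) and Olfr1349, an olfactory receptor gene on chromosome 7 (0.932). None of the 5 is on chromosome 6, and the points share the 4 groups, so r describes group levels as much as libraries. Clybl had 61.3, 81.9 and 38.9 CPM in naive KO, against 26.6, 26.2 and 23.4 CPM in naive WT libraries. The 5 genes were picked by correlation over these same libraries, so nothing is read from the order of their KO libraries. Olfr1349 had 5.38, 5.04 and 2.06 CPM in naive KO, against 0.32, 0.321 and 0.398 CPM in naive WT libraries.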

How the data were processed

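The authors deposited unnormalized read counts for every gene beside its summed exon length. Per the file headers, featureCounts 2.0.1 assigned reads to GENCODE vM25 genes with default options otherwise, which ignore strand and leave out reads with several matches or in overlapping genes. The submitters' processing notes also name fastp, FastQC, STAR and DESeq2, and the build GRCm38 (mm10), with no version. Symbols were matched by gene identifier for 55141 of 55487 rows, and rows without one took at most 0.0312% of the counts of a library.

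Counts from 12 libraries were scaled by TMM and fitted together in edgeR 4.0.16 (R 4.3.3, quasi-likelihood, 4 group means, 8 residual degrees of freedom) after filterByExpr (minimum count 10, minimum total 15), which left 18134 genes and 6 of 8 members. A call is a Benjamini-Hochberg adjusted p under 0.05 over all genes, and adjusted p-values come from this fit unless another is named. SE is the log2 fold change over the square root of F. The code was tested on simulated data. Alternatives were DESeq2 1.42.0 (test, and size factors), no filter, the condition's libraries alone, a replicate block and leaving out each library. Same-numbered libraries of a genotype correlated between conditions (0.145 to 0.264) and were paired as clones on that basis, which the labels do not state. Same-numbered KO and WT libraries correlated at -0.266 to 0.00374. Between differently numbered ones, EpiLC KO replicate 1 and EpiLC WT replicate 3 correlated at 0.287, and EpiLC KO replicate 3 and EpiLC WT replicate 2 at 0.204. Intervals of count ratios cover counting error only. Ratios at a floor of 3 counts set a group without counts at that floor and leave out the counting error of the other group.

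Promoter windows are from RefSeq on GRCm38.p6. Coding sequences and 50-base sharing come from GENCODE vM21 transcripts, a version older than that of the counts. The members, gene lists and tests were chosen with earlier results of these data known. Named genes were the members, Pcbp1, tested genes between the cluster and Pcbp1, called genes of the window with the 3 highest and 3 lowest fold changes, up to 4 called genes of each list with the smallest adjusted p in each condition, and the 5 genes most correlated with the family. Genes outside this rule were picked after their values were seen: Alms1, Alms1-ps1, Acy1, Acy3, and the tissue marker genes. The result of 1 marker gene and of 1 searched motif is not reported here.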

Additional observations from a re-analysis of the deposited data

Results flagged for a closer look

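Among the tissue marker genes set beside the family, the KO effect on 3 transcription factor genes of visceral endoderm and liver differed between conditions by the interaction test of edgeR, given as the KO effect in EpiLCs minus that in naive cells on the log2 scale. Gata4 differed by 3.62 ± 0.659 (SE, adjusted p = 0.0412), with means of 2.83 CPM in EpiLC KO, 0.539 CPM in EpiLC WT, 0.313 CPM in naive KO and 0.722 CPM in naive WT. Sox17 differed by 3.86 ± 0.726 (adjusted p = 0.0478) and Foxa2 by 4.93 ± 0.934 (adjusted p = 0.0482). All 3 were called higher in EpiLC KO, and 0 of the 3 were called in naive cells. These 3 are among the 9 tested genes of the hepatocyte and yolk sac list, of which 4 were called higher and 2 lower in EpiLC KO. The interaction test called 69 of all 18134 genes (0.381%). No neighbour of the family and no member of the 3 enzyme lists was called in that test. At so low a share over all genes, nothing is read from that absence.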

How the results depend on the processing

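Leaving out 1 library moved the genes called over the whole table between 678 and 1744 in naive cells (1673 with all libraries) and between 1375 and 3117 in EpiLCs (2734 with all). Naive calls were fewest with KO replicate 1 (678), WT replicate 3 (850) or WT replicate 1 (1115) left out, and EpiLC calls with KO replicate 1 (1375), KO replicate 3 (1814) or WT replicate 3 (1754) left out. Locus neighbours called were 2 to 5 in naive cells with a library left out (4 with all, 2 without naive KO replicate 1, 6 with DESeq2) and 2 to 4 in EpiLCs (3 with all), and 5 in EpiLCs with no low-count filter or with DESeq2. Naive members called of the mercapturate list (1) became 8 with no filter, 2 with the condition's libraries alone, 3 with the replicate block, 5 with DESeq2 and 0 to 5 with a library left out. The ER acetylation list (1) became 3 with no filter and 1 to 2 with a library left out, and the other N-acetyltransferases (4) became 1 to 5. In EpiLCs these lists gave 6 to 11 (12), 1 to 3 (3) and 2 to 4 (3) with a library left out. The list counts were recomputed after seeing the data, and the cause of these shifts was not tested.

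Pcbp1 kept its direction and call in all alternatives, at -0.69 to -0.60 in naive cells and -1.24 to -1.02 in EpiLCs with a library left out. The summed member CPM differed by 1.80 to 4.67 between EpiLC KO and EpiLC WT with a library left out. Nat8f1 lay between -0.054 and 0.56 in naive cells with a library left out, negative in the absence of naive KO replicate 2. With the replicate number as a block between KO and WT, where the number pairs nothing, 1608 naive and 2552 EpiLC genes were called and Nat8f2 stood at 2.32 in EpiLCs (adjusted p = 0.0164). With the replicate number taken as the clone and used as a block between conditions, the tested members kept their direction (Nat8f2 0.02 in KO and -0.57 in WT). At 0 to 5 counts per EpiLC library, the depth limits any statement on Nat8f7, Nat8f3, Nat8f6 and Nat8f5 there.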

Other observations

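Other N-acetyltransferases were looked at beside the family, in a list of 29 genes of which 24 were tested. In naive KO 3 were called higher and 1 lower, and in EpiLC KO 2 higher and 1 lower, with median log2 fold changes of 0.10 and -0.06. Over all genes tested, 4.27% were called higher and 4.95% lower in naive KO, and 7.22% higher and 7.86% lower in EpiLC KO. Nat1, an arylamine N-acetyltransferase gene on another chromosome, averaged 10.8 ± 1.98 CPM in naive KO and 1.08 ± 0.73 CPM in naive WT (SD, n = 3, log2 3.33 ± 0.414, edgeR adjusted p = 0.000535). In EpiLCs it averaged 0.602 ± 0.156 CPM in KO and 0.121 ± 0.0359 CPM in WT (log2 2.31 ± 0.555, adjusted p = 0.0163), a call that ended without EpiLC WT replicate 1 (adjusted p = 0.0671). Naa10, the catalytic subunit gene of the NatA complex, was lower in naive KO (log2 -0.53 ± 0.122, adjusted p = 0.0188) and in EpiLC KO (-0.58 ± 0.121, adjusted p = 0.00793), and the naive call ended without naive WT replicate 1 or 3 or naive KO replicate 2 (adjusted p of 0.0515 to 0.0571). Sat1, the spermidine and spermine acetyltransferase (0.58 ± 0.154, adjusted p = 0.034), and Nat2 (0.80 ± 0.214, adjusted p = 0.0361) were higher in naive KO. Naa40, a histone N-terminal acetyltransferase gene, was higher in EpiLC KO (0.43 ± 0.106, adjusted p = 0.0185). The calls of Sat1, Nat2 and Naa40 were lost when single libraries were left out.

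Nat8l, the relative of the family that makes N-acetylaspartate, averaged 0.091 ± 0.108 CPM in naive KO and 0.215 ± 0.0688 CPM in naive WT, and 5.49 ± 0.168 CPM in EpiLC KO and 3.89 ± 2.32 CPM in EpiLC WT. It did not pass in either condition (adjusted p of 0.383 and 0.535). Nat8b-ps, a pseudogene of the family, had 1 count over the 3 libraries of naive KO and of EpiLC KO and 0 over those of naive WT and of EpiLC WT.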
